A study of Homo sapiens with 4 samples.

Results

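The genes examined here were the 10 genes of the transforming growth factor beta (TGF-beta) system that encode its ligands (TGFB1, TGFB2, TGFB3), its receptors (TGFBR1, TGFBR2, TGFBR3) and the latent TGF-beta binding proteins (LTBP1, LTBP2, LTBP3, LTBP4). They were taken by symbol from 25559 gene symbols in tables of raw RNA-seq read counts, and each had 1 row. HGC-27 cells derive from a human gastric carcinoma, and the study used RNA-seq to ask how RUNX3, a Runt domain transcription factor, acts on transcription in them. The tables covered 2 libraries of HGC27 cells labelled wildtype, called control here, and 2 libraries of HGC27 cells labelled RUNX3 knock-out, called RUNX3 KO. The RUNX3 KO cells had been made by lentiviral Cas9 with a guide against the coding sequence of RUNX3, followed by puromycin selection and single-cell cloning. The number of clones behind the libraries, whether replicates were separate cultures, and whether the control cells carried a control vector are not given in the sources used here, so p-values measure the spread between these libraries, which may be technical, and the effect of RUNX3 loss and the properties of a clone cannot be told apart.

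TGF-beta is made as a precursor that is cleaved by furin-type convertases, after which the propeptide stays around the growth factor and holds it latent. LTBPs bind this latent complex and tether it to fibrillin and fibronectin in the matrix, from which integrins, thrombospondin-1 and proteases can release it. Free ligand binds the type II receptor TGFBR2, which recruits and phosphorylates the type I receptor TGFBR1. The activated receptor phosphorylates SMAD2 and SMAD3, which enter the nucleus with SMAD4. TGFBR3, or betaglycan, is a co-receptor that presents ligand, above all TGF-beta 2, which binds TGFBR2 poorly by itself. RUNX proteins are known to form complexes with SMADs, and in carcinoma cells TGF-beta is a classic inducer of epithelial-mesenchymal transition (EMT).

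Each library had between 11731401 and 12110876 reads counted on genes. RUNX3 itself was read 351 and 308 times in control cells and 225 and 185 times in RUNX3 KO cells (log2 fold change -0.70, SE 0.0961, adjusted p = 1.43e-09 by edgeR). Without RUNX3 KO replicate 2 it was -0.55, with an adjusted p of 0.0649. The count covers the whole gene and does not show the edit. Of 6 epithelial markers, EPCAM had at most 1 count in any library and KRT19 was at 0 in all 4, and 5 of 6 gastric lineage markers were at 0 in every library, so the gastric label has no support from these markers. The summed counts of the epithelial list were 38 and 35 in control cells and 105 and 127 in RUNX3 KO cells. The 2 markers with enough reads to test, CDH1 and KRT8, were both higher (log2 fold changes 0.77 and 2.33). KRT8 made up most of the rise, from 19 and 11 counts to 72 and 81. KRT18 went from 0 in each control library to 2 and 14, while EPCAM and KRT7, at 3 counts or fewer, were lower. For 9 markers of immune, endothelial, blood and liver cells the sum was at most 11 counts in any library. Whether the rise of KRT8 and CDH1 had a part in the results below was not tested.

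Among the 10 genes, all 3 ligands and LTBP1 and LTBP4 were lower in RUNX3 KO cells, and none was higher. TGFB3 fell by 43.4%, TGFB2 fell by 41.5%, and LTBP1 fell by 12.7%, the least of the called genes. In bulk RNA, fewer cells that express a gene and less RNA per cell cannot be told apart. TGFBR1, TGFBR3, LTBP2 and LTBP3 did not pass the test, and TGFBR2 was counted at only 3 to 5 reads per library and could not be tested. Calls were made by edgeR's quasi-likelihood test over 12967 genes at an adjusted p under 0.05 (Benjamini-Hochberg over all tested genes). At this threshold 24.4% of all tested genes were lower, 24.5% were higher and 48.9% changed in either direction, so the 55.6% of the 9 tested members that were called is a share close to that of all genes. By direction, 5 of the 9 members were lower and 0 higher. At an unadjusted p under 0.05 edgeR also gave 5 lower and 0 higher members, and DESeq2 gave 5 and 0 by adjusted p. By the study's own criteria, a fold change of at least 2 with an unadjusted p of at most 0.05, 0 of the 9 members passed with edgeR and 0 with DESeq2, against 6.12% of all tested genes. The control and RUNX3 KO libraries did not overlap for 6 of the 9 members, and for 72.7% of all tested genes. The median log2 fold change was -0.20 for the 9 members and -0.0021 for all tested genes.

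**Figure D1:**
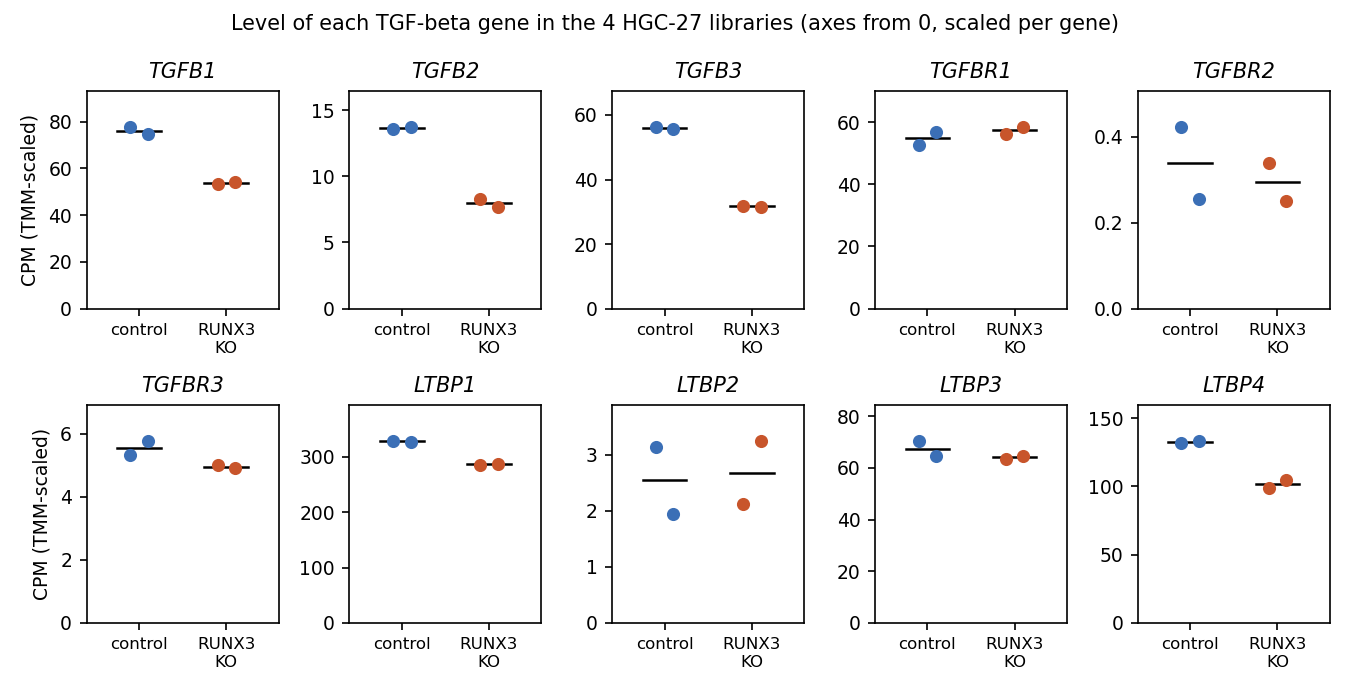
Level of each of the 10 genes in CPM (read count relative to the TMM-scaled total of its library; linear axes from 0, a separate scale per gene), with 1 point per library and a line at the mean of 2 libraries. The RUNX3 KO points of TGFB1, TGFB2, TGFB3, LTBP1 and LTBP4 lie below both control points, TGFBR1, LTBP2 and LTBP3 overlap, and TGFBR2 lies under 0.5 CPM throughout.

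TGFB1, which encodes the most widely expressed TGF-beta isoform, lies on chromosome 19 from 41807492 to 41859827 (GRCh37, minus strand). Control cells gave 919 and 881 counts and RUNX3 KO cells 632 and 652. Exons of HNRNPUL1 on the other strand cover 6.6% of its exon bases. Both RUNX3 KO libraries were below both control libraries, by more than the replicates differed. In CPM, the read count relative to the scaled total of its library, the level was 76.2 ± 2.25 CPM in control cells and 53.9 ± 0.486 CPM in RUNX3 KO cells (SD, n = 2 per group). TGFB1 fell by 29.3%, or -0.50 as a log2 fold change (SE 0.0555, 95% interval -0.61 to -0.39, adjusted p = 6.12e-13 by edgeR).

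TGFB2 encodes the isoform with the greatest need for betaglycan, and is on the plus strand of chromosome 1 from 218518678 to 218617961. It had the fewest reads of the ligands, at 160 and 162 counts in control cells and 98 and 92 in RUNX3 KO cells. The groups did not overlap, and the relative counting error was larger here than for the other ligands. TGFB2-OT1, annotated on the same strand, covers 22.7% of its exon bases, and the antisense TGFB2-AS1 covers 11.6%. Control cells held 13.6 ± 0.124 CPM and RUNX3 KO cells 7.98 ± 0.460 CPM (SD, n = 2 per group). The difference for TGFB2 came to -0.77 as a log2 fold change (SE 0.132, 95% interval -1.04 to -0.51, adjusted p = 4.90e-07 by edgeR).

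TGFB3, the third isoform, lies on chromosome 14 from 76424440 to 76449354 (minus strand). Its counts were 665 and 657 in control cells against 376 and 379 in RUNX3 KO cells, so replicates were nearly equal within each group and the groups stood well apart. This corresponds to 56.0 ± 0.463 CPM for control and 31.7 ± 0.235 CPM for RUNX3 KO cells (SD, n = 2 per group). The fitted log2 fold change of -0.82 (SE 0.0680, 95% interval -0.96 to -0.69, adjusted p = 7.81e-19 by edgeR) was exceeded by the falls of 5.62% of all tested genes. Its order with TGFB2 was not fixed, since TGFB2 fell slightly more without RUNX3 KO replicate 1 (log2 fold change -0.8305 against -0.8263) and lay further below the median of its chromosomal neighbours (-0.82 against -0.61). The intervals of TGFB3 and TGFB2 overlapped, whereas that of TGFB1 lay above that of TGFB3; the difference between the changes of the isoforms was not tested.

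The 250 bases before the annotated starts of the 3 ligand genes are shown because all 3 genes fell. They were taken from RefSeq (GRCh38.p14, a different build from that of the gene positions above) and were searched for the RUNX core motif TGTGGT and its reverse complement ACCACA, which is in capitals where present. Sequences run 5′ to 3′ on the strand of the gene.

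TGFB1, chr19:41353923-41354172, minus strand: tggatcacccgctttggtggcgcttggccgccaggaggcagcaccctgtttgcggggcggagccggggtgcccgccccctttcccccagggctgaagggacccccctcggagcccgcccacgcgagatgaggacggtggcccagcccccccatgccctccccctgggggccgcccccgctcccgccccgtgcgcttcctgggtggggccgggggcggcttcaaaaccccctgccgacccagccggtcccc

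TGFB2, chr1:218345086-218345335, plus strand: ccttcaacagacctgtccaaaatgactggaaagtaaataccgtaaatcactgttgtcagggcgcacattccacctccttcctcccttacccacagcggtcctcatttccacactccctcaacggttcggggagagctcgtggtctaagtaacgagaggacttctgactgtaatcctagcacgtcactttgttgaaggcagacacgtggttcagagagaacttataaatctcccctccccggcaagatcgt

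TGFB3, chr14:75981996-75982245, minus strand: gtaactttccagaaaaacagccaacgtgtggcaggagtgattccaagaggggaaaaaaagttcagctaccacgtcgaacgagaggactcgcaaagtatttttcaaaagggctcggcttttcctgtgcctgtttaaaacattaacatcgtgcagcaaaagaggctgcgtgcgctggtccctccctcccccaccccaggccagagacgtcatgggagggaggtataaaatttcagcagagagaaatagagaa

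TGFB3, chr14:75983012-75983261, minus strand: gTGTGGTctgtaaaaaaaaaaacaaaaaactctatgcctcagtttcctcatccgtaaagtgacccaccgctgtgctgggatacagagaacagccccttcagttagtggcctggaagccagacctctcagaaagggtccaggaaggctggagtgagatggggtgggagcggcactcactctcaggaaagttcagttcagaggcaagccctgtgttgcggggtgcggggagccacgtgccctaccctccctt

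Of the 4 ligand windows, 1 held the motif, the farther upstream of the pair at TGFB3, where it lies at the far end of the window. All 10 genes had entries in the RefSeq table, with 23 windows in all, and the only other matches were 2 in 1 of the 3 windows of LTBP1. In all, 2 of the 23 windows held the motif, as did 11.0% of all 34943 windows of this length. These letters say nothing of RUNX3 binding, which was not measured in these files.

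Isoforms differ in transcript length, so their levels were compared as RPKM, the CPM divided by the length in kilobases of all annotated exons. TGFB1 was the most abundant ligand in control cells at 23.4 ± 0.693 RPKM, followed by TGFB3 at 10.7 ± 0.0849 RPKM and TGFB2 at 2.25 ± 0.0205 RPKM (SD, n = 2 each). The order was the same in RUNX3 KO cells, at 16.5 ± 0.141, 6.07 ± 0.0446 and 1.32 ± 0.0757 RPKM (SD, n = 2 each), and neighbours in it differed by far more than the replicates. The summed ligand level was 36.9 and 35.8 RPKM in the control libraries and 23.9 in each RUNX3 KO library, 0.658 times the control mean. TGFB1 made up 64.7% and 63.9% of this sum in control cells but 68.7% and 69.5% in RUNX3 KO cells. The share of TGFB3 went the other way, from 29.2% and 29.8% to 25.5% and 25.2%. TGFB2 held 6.07% and 6.34% in control cells, then 5.75% and 5.29% in RUNX3 KO cells. These shares are given as a description and were not tested. With 2 libraries per group an exact permutation test, two-sided, gives no p below 0.333. With the longest transcript as length, TGFB1 had 59.5% in control and 64.7% in RUNX3 KO cells, so the size of a share depended on the length used but its direction did not.

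**Figure D2:**
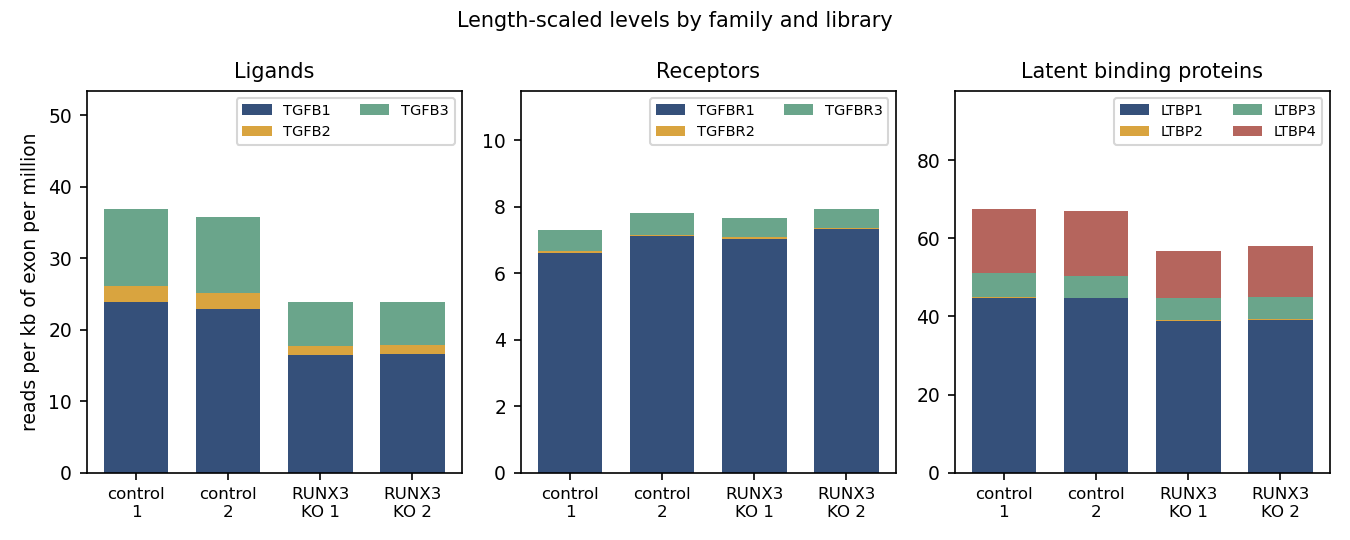
Length-scaled level (RPKM, linear axes from 0) of the ligands, receptors and latent TGF-beta binding proteins, stacked by gene, with 1 bar per library. Summed ligand levels average 36.3 RPKM in control and 23.9 in RUNX3 KO libraries, receptor levels are dominated by TGFBR1 in all 4 libraries with TGFBR2 barely visible, and LTBP levels average 67.2 and 57.4 RPKM.

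The receptor genes differed from one another far more in level than between conditions. TGFBR1, the type I receptor kinase, lies on chromosome 9 from 101866320 to 101916474 (plus strand) and gave 623 and 670 counts in control cells and 663 and 703 in RUNX3 KO cells. The groups overlapped. The fitted log2 fold change of TGFBR1 was 0.07 (SE 0.0598, 95% interval -0.05 to 0.18, adjusted p = 0.379 by edgeR), an interval that leaves out a change as large as that of any ligand. TGFBR3, the betaglycan gene on chromosome 1 from 92145900 to 92371892 (minus strand), was counted at 63 and 68 reads in control cells and 59 in each RUNX3 KO library. The groups just failed to overlap, but the log2 fold change of -0.16 (SE 0.185, 95% interval -0.53 to 0.20, adjusted p = 0.488 by edgeR) did not pass the test, and its interval spans both directions.

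TGFBR2, the type II receptor kinase that binds ligand, is on the plus strand of chromosome 3 from 30648093 to 30735634. Only 5 and 3 reads were counted in control cells and 4 and 3 in RUNX3 KO cells. This was too few to pass edgeR's filter on low counts, and no fold change is given. The library with 5 counts had 0.426 CPM without TMM scaling, with an exact binomial 95% interval of 0.138 to 0.995, and the upper bounds of the other libraries were 0.724 to 0.861 CPM; such intervals cover counting error only. In RPKM, TGFBR2 stood at 0.0495 ± 0.0175 in control cells, against 6.86 ± 0.354 for TGFBR1 and 0.647 ± 0.0351 for TGFBR3 (SD, n = 2 each). It took 0.848% and 0.475% of the summed receptor level in control cells and 0.646% and 0.459% in RUNX3 KO cells. By control RPKM, TGFBR2 was above 32.5% of 18775 protein-coding genes in the tables, many of which are at 0, while TGFBR1 was above 70.6% and TGFBR3 above 43.4%. The near absence of TGFBR2 transcript was therefore shared by control and RUNX3 KO cells, and at this depth a difference between them was not detectable.

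LTBP1 encodes the main carrier of latent TGF-beta and is on the plus strand of chromosome 2 from 33172020 to 33624576. It had the highest level of the 10 genes also per exon length, at 44.7 RPKM in control cells. There were 3882 and 3870 counts in control cells and 3377 and 3450 in RUNX3 KO cells. All 4 libraries were tight within their group. Control cells held 328 ± 0.622 CPM of LTBP1 and RUNX3 KO cells 287 ± 0.603 CPM (SD, n = 2 per group). On the log2 scale the fold change was -0.20 (SE 0.0297, 95% interval -0.26 to -0.14, adjusted p = 2.14e-08 by edgeR). Among the 1162 tested genes within 2-fold of its mean count, 70.1% were called, so a call at this depth was common.

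LTBP4, which carries TGF-beta 1 and also serves in elastic fibre assembly, lies on chromosome 19 from 41098789 to 41135723 (plus strand). Its counts were 1557 and 1573 in control cells against 1164 and 1262 in RUNX3 KO cells. RUNX3 KO replicates differed more than control replicates but stayed well below them. Control cells had 133 ± 0.998 CPM of LTBP4 and RUNX3 KO cells 102 ± 4.49 CPM (SD, n = 2 per group), or -0.38 as a log2 fold change (SE 0.0429, 95% interval -0.47 to -0.30, adjusted p = 1.08e-12 by edgeR).

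LTBP3, a carrier of several latent isoforms on chromosome 11 from 65306030 to 65326401 (minus strand), gave 831 and 762 counts in control cells and 751 and 777 in RUNX3 KO cells. The scaled groups overlapped, and the log2 fold change was -0.07 (SE 0.0555, 95% interval -0.18 to 0.04, adjusted p = 0.281 by edgeR). LTBP2, which does not bind latent TGF-beta and acts in microfibrils, lies on chromosome 14 from 74964886 to 75079081 (minus strand). It was scarce, at 37 and 23 counts in control cells and 25 and 39 in RUNX3 KO cells. The spread within each group was nearly as wide as the range over both, and the log2 fold change of 0.08 (SE 0.266, 95% interval -0.45 to 0.61, adjusted p = 0.833 by edgeR) turned negative without control replicate 2 (-0.22) or without RUNX3 KO replicate 2 (-0.26). In RPKM the order in control cells was LTBP1 at 44.7, LTBP4 at 16.4, LTBP3 at 5.86 and LTBP2 at 0.280, and each step was larger than the replicate spread. Summed over the 4 genes, the level was 67.2 ± 0.414 RPKM in control cells and 57.4 ± 0.792 RPKM in RUNX3 KO cells (SD, n = 2 per group), 0.855 times control.

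To see whether a member moved with its surroundings on the chromosome, each was set beside the 40 nearest tested genes with a position, 20 on each side. TGFB3 and LTBP2 lie 1.35 Mb apart on chromosome 14 and share 24 of these neighbours. Around TGFB3, 32 of 40 neighbours had a negative log2 fold change, with a median of -0.21, and around LTBP2 32 of 40 did, with a median of -0.26. TGFB3 lay 0.61 below its neighbourhood median, and 1 neighbour fell at least as much, whereas LTBP2 lay 0.34 above its own. TGFB1 and LTBP4 lie 0.672 Mb apart on chromosome 19 and share 29 neighbours. Around each of them 28 of 40 neighbours were below 0, with a median of -0.04 for TGFB1 and -0.05 for LTBP4, against -0.50 and -0.38 for the genes themselves. LTBP1 and TGFBR1 lay among genes that were mostly above 0. Around LTBP1 11 of 40 neighbours were below 0, with a median of 0.08, and around TGFBR1 12 of 40 were, with a median of 0.26, above its own 0.07. For TGFB2, 15 of 40 neighbours were below 0 (median 0.04), for TGFBR3 14 of 40 (0.07) and for LTBP3 19 of 40 (0.01).

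**Figure D3:**
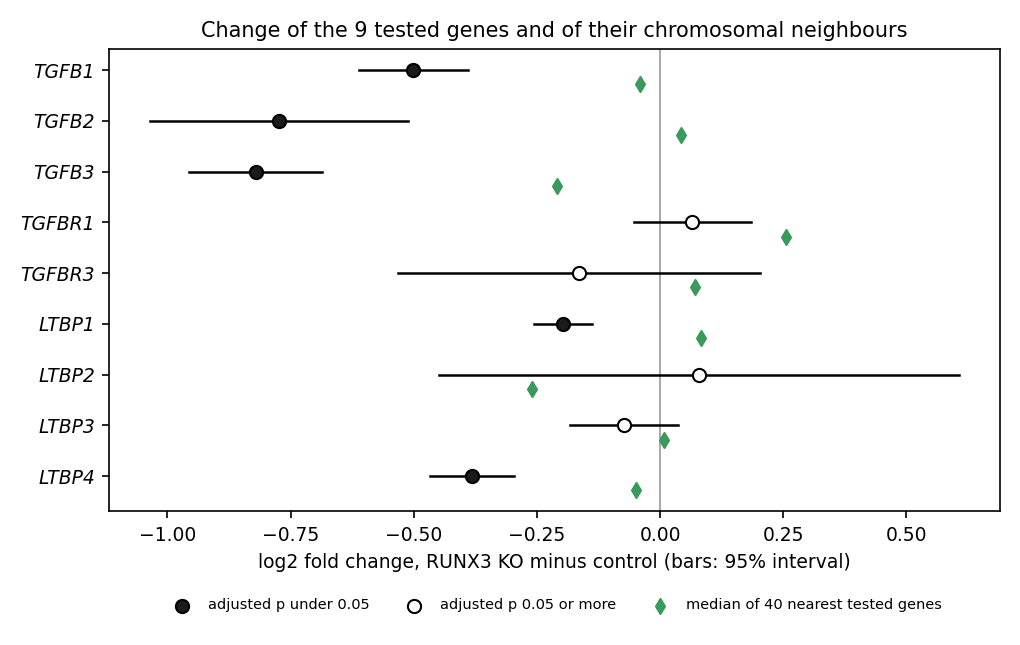
Log2 fold change of the 9 tested genes in RUNX3 KO against control cells (circles, filled where the adjusted p is under 0.05; bars, 95% interval) and, as diamonds, the median over its 40 tested neighbours. The 3 ligands, LTBP1 and LTBP4 lie left of 0, and the neighbourhood medians of TGFB3 and LTBP2 are negative while that of TGFBR1 is positive.

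Other genes of the pathway were taken from 6 lists by role. The lists overlap, with SMAD7, SKIL and TGIF1 counted both among SMADs and corepressors and among target genes, and C18orf1 both among receptor regulators and among target genes. Up to 3 genes per list were named by a rule on size. Chosen after their values were seen were FURIN, PCSK6, PCSK5, ITGB6, LRRC32, LRRC33, SMAD3, SMAD4, CTGF and TGFBI. The same holds for ITGAV, ITGB1, ITGB3, ITGB5, ITGB8, TAGLN, CDKN2B, TPM1, HMGA2 and PMEPA1. Of 16 genes for processing and release of latent TGF-beta, 12 were tested, 6 fell and 2 rose (66.7% called, against 48.9% of all tested genes), with a median log2 fold change of -0.25. MMP2, a gelatinase that can release latent TGF-beta, fell from 309 and 311 counts to 36 in each RUNX3 KO library, a log2 fold change of -3.12 (SE 0.141). THBS1, which encodes the activator thrombospondin-1, fell from 1010 and 998 counts to 375 and 392 (-1.40, SE 0.0610). MMP14, a membrane-bound activator of MMP2, fell from 1592 and 1478 to 746 and 760 counts (-1.04, SE 0.0482), and 39 of its 40 neighbours were also below 0, with a median of -0.34. Adjusted p-values of these 3 genes by edgeR were at most 1.64e-34. The convertase genes went in different directions. FURIN rose by 0.52 and PCSK6 by 0.61 on the log2 scale, in neighbourhoods whose medians were 0.67 and 0.62, and PCSK5 fell by 2.18. The genes ITGB6, LRRC32 and LRRC33 (now NRROS), which serve in activation or cell-surface display of latent TGF-beta, had at most 1 count in any library. The other integrin genes of the list had mean counts of 4124.5 (ITGB1), 1377.25 (ITGAV), 581.5 (ITGB5), 47.0 (ITGB8) and 22.25 (ITGB3). Of these only ITGB5 was called, with a log2 fold change of -0.33 (SE 0.0642).

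The matrix scaffold of the latent complex had 9 listed genes, of which 5 were tested. Of these, 3 were lower and 2 higher (all 5 called, against 48.9% of all tested genes), with a median of -0.57. FN1, the fibronectin gene, fell from 115 and 95 counts to 15 and 11 (log2 fold change -3.01, SE 0.240). The fibrillin genes rose. FBN2 went from 1901 and 1892 counts to 5666 and 5392 (1.53, SE 0.0324), and FBN1 went from 55 and 39 to 103 and 110 counts (1.16, SE 0.177). By edgeR the largest adjusted p of these 3 genes was 2.42e-08, and FBN1 lost its call without RUNX3 KO replicate 2 (adjusted p = 0.0566).

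Co-receptors and regulators of receptor activity numbered 16, all tested. Of these, 5 fell and 2 rose (43.8% called, against 48.9% of all tested genes), with a median of -0.07. BAMBI, a pseudoreceptor that blocks signalling, changed by -0.46 (SE 0.0699) from 561 and 586 counts to 441 and 398. NRP2, a neuropilin that can bind TGF-beta, changed by -0.45 (SE 0.105) and lost its call without RUNX3 KO replicate 2 (adjusted p = 0.0736). CD109, a co-receptor that limits signalling, changed by -0.43 (SE 0.0749). The number of calls fell to 4 with DESeq2, and it also fell with either RUNX3 KO replicate left out. Calls over all tested genes fell in these fits too, with DESeq2 from 3158 lower and 3183 higher to 1863 and 1829.

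All 9 SMAD and corepressor genes were tested. Of these, 2 fell and 2 rose (44.4% called, against 48.9% of all tested genes), with a median of -0.07. SMAD7, the inhibitory SMAD that TGF-beta itself induces, changed from 233 and 213 counts to 161 and 148 (log2 fold change -0.54, SE 0.109, adjusted p = 1.59e-05 by edgeR, and 0.0677 without RUNX3 KO replicate 2). SMAD2, a receptor substrate, was higher by 0.17 (SE 0.0433) and TGIF1, a corepressor, by 0.24 (SE 0.103). SMAD2 lost its call with DESeq2 (adjusted p = 0.0561) and without either RUNX3 KO replicate (0.0672 and 0.0542). TGIF1 lost it in 8 of 14 alternatives, with an adjusted p of up to 0.334. The list had 1 call with DESeq2, 2 without a filter on low counts, and fewer than 4 with either RUNX3 KO replicate left out. Calls over all tested genes fell in these fits too. They went from 3158 lower and 3183 higher to 1863 and 1829 with DESeq2, and to 2464 and 2447 of 17650 genes without the filter. SMAD3 at -0.07 (SE 0.0609) and SMAD4 at 0.02 (SE 0.0499) did not pass.

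Of 25 genes listed as TGF-beta targets, 20 were tested. Of these, 9 fell and 7 rose (80.0% called, against 48.9% of all tested genes), with a median of -0.38. SNAI2, an EMT transcription factor, fell from 299 and 309 counts to 88 and 72 (log2 fold change -1.94, SE 0.119). BHLHE40, a transcriptional repressor, fell from 290 and 267 to 129 and 140 counts (-1.06, SE 0.107), and COL1A1, a fibrillar collagen chain, from 15098 and 14293 to 8010 and 8263 (-0.87, SE 0.0237). The largest adjusted p of the 3 was 9.65e-15 by edgeR. CTGF (now CCN2), the connective tissue growth factor gene, rose from 115 and 129 counts to 220 and 208 (0.80, SE 0.117). The other targets that rose were TAGLN (0.74), CDKN2B (0.62), TPM1 (0.59), HMGA2 (0.40), PMEPA1 (0.33) and TGIF1 (0.24). TGFBI, a matrix protein gene named for its induction by TGF-beta, had at most 1 count in any library. Fewer targets were called without RUNX3 KO replicate 2, as were fewer of all tested genes.

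The activin and nodal branch with extracellular ligand traps had 20 listed genes, of which 9 were tested. Of these, 5 were lower and 1 higher (66.7% called, against 48.9% of all tested genes), with a median of -0.17. INHBE, an activin subunit gene, fell from 184 and 157 counts to 89 and 84 (log2 fold change -0.99, SE 0.135, adjusted p = 8.75e-10 by edgeR). INHBB, another subunit gene, changed by -0.64 (SE 0.194, adjusted p = 0.00412 by edgeR), which did not pass with DESeq2 (adjusted p = 0.136) or without either RUNX3 KO replicate (0.120 and 0.0554). DCN, the gene of decorin, a proteoglycan that binds TGF-beta, fell from 1843 and 1820 to 1407 and 1423 counts (-0.39, SE 0.0398).

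**Figure D4:**
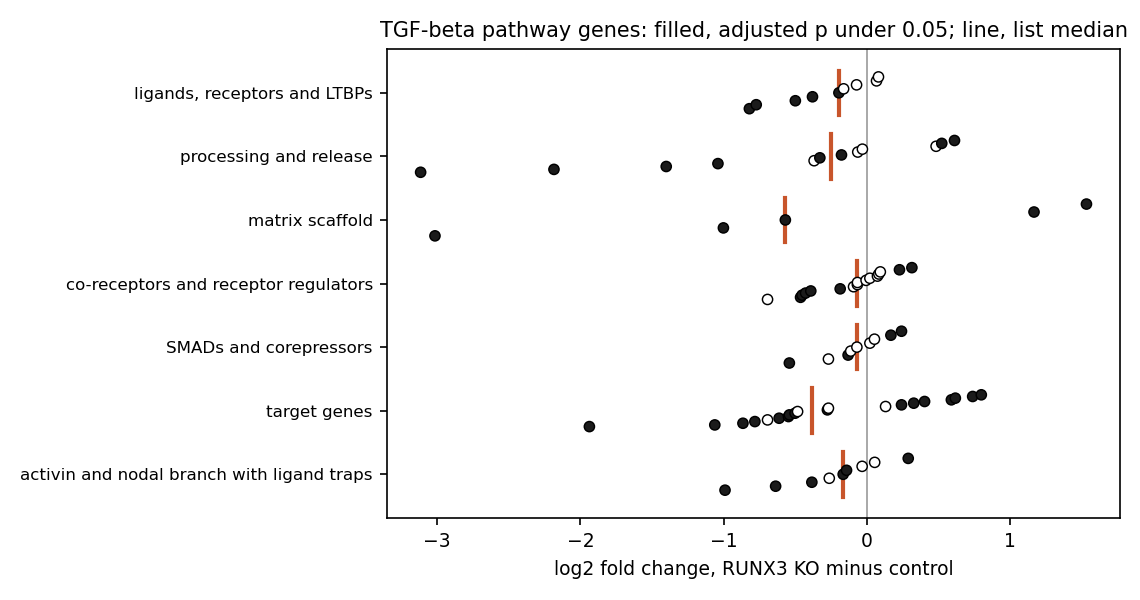
Log2 fold change of every tested gene in RUNX3 KO against control cells for the 10-gene set and the 6 other pathway lists (1 point per gene, filled where the adjusted p is under 0.05; line, list median). The matrix scaffold spreads from -3.01 to 1.53, and most SMADs and receptor regulators lie near 0.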

How the data were processed

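RNA-seq was available for 2 control and 2 RUNX3 KO libraries of HGC-27 cells. The authors deposited raw counts of reads per gene symbol, without normalization, 1 table per library. Their methods name STAR, hg19 and featureCounts with GENCODE, whereas the submitters' processing notes name HISAT2 2.1.0 and HTSeq, and the tables close with 5 rows in the form of htseq-count. The sources also differ on medium and RNA preparation. The labels name a stranded kit, but whether counting used strand is not given in the sources used here, so reads from a gene and an antisense partner may not be told apart.

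The closing rows took 25.9% to 28.1% of all counts and were left out. The analysis used edgeR 4.0.16 under R 4.3.3, with filterByExpr at its defaults (minimum count 10, minimum total 15), TMM, glmQLFit and glmQLFTest, Benjamini-Hochberg over 12967 genes. SEs were derived from each gene's log2 fold change and F statistic. Each library was kept as a sample. Replicates differed by only slightly more than counting noise (chi-square per degree of freedom 1.22 for control and 1.18 for RUNX3 KO libraries), and the common dispersion was 0.000211. Such a small spread may be technical, so the p-values may not cover variation between separate cultures. On simulated counts over 12816 genes for this comparison, 88 of 99 genes changed by 1 and 78 of 98 changed by 0.5 (log2) were recovered, with 11 false calls. The simulation gave every gene the common dispersion, so it did not cover spread that differs by gene or variation between cultures or clones. Positions and exon lengths came from GENCODE 44 on GRCh37, the build the paper calls hg19. Of the tested genes, 93.4% had a position. Genes were matched by symbol or, through RefSeq synonyms, by older symbol.

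Members and lists were chosen with earlier results of these data known. All 10 members and RUNX3 were named, and from each other list up to 3 genes with the largest absolute log2 fold change at an adjusted p under 0.05, provided that the groups did not overlap and that counts averaged 50 or more. Other genes were chosen after their values were seen. Alternatives were other scalings (DESeq2 size factors, upper quartile, library size), tests (DESeq2 1.42.0, edgeR's exact test and newer quasi-likelihood method, limma-voom 3.58.1), filters, a replicate block, each library left out, the neighbourhood median and other gene lengths. The MANE Select length was added after seeing the data. Some items are not reported here.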

Additional observations from a re-analysis of the deposited data

How the results depend on the processing

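All 5 member calls kept direction and an adjusted p under 0.05 in every one of the 14 other fits, and 0 members reached a fold change of 2 in any. Over those fits TGFB1 ranged from -0.53 to -0.47, TGFB2 from -0.83 to -0.72, TGFB3 from -0.84 to -0.81, LTBP1 from -0.22 to -0.19 and LTBP4 from -0.43 to -0.33. The largest adjusted p of these genes was 0.0339, for TGFB2 with 1 library left out. In fits that left a group with 1 library, that library was assumed to vary like the others. LTBP2 was the only member whose sign turned in these fits, and over the fits with each library left out it ranged from -0.26 to 0.46. Over all tested genes, 3158 were lower and 3183 higher in the main setting, 1863 and 1829 with DESeq2, 1531 and 1483 without RUNX3 KO replicate 1, and 1378 and 1285 without RUNX3 KO replicate 2. The lists lost calls in some fits, and the cause was not tested. DESeq2 called 4 co-receptors and receptor regulators and 1 SMAD or corepressor, and without a filter on low counts 2 SMADs or corepressors were called. Without that filter, 2464 of all 17650 tested genes were lower and 2447 higher. With each library left out, calls ranged from 2 to 8 for co-receptors and receptor regulators, from 0 to 3 for SMADs and corepressors and from 10 to 16 for target genes.

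The share of TGFB1 in the ligand sum was 59.5% in control and 64.7% in RUNX3 KO cells with either the longest or the MANE Select transcript as length, that of TGFB2 5.05% and 4.54%, and that of TGFB3 35.4% and 30.8%. Subtracting the neighbourhood median moved TGFB3 to -0.61, LTBP1 to -0.28, LTBP4 to -0.33 and TGFBR1, whose sign turned, to -0.19. TGFB2 became -0.82, a larger fall than that of TGFB3.

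Replicate numbers are shared between the groups, and deviations of same-numbered libraries were nearly uncorrelated (correlation 0.0218 over 12967 genes, with 2 numbers). Replicates differed by little more than counting noise, so this value cannot show whether same-numbered libraries share a culture or preparation. With the replicate block, 5 members were again called, 7 co-receptors and receptor regulators, 4 SMADs and corepressors and 16 target genes, as without it. Depth limits LTBP2, TGFBR3 and above all TGFBR2, which had 5 counts at most.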
